A study of Mus musculus with 23 samples.

Results

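The comparison described here asks where cycloheximide (CHX) changes the response of mouse astrocytes to T3, the active thyroid hormone. It is the difference between a pair of T3 effects at 6 h, T3 with CHX over CHX alone minus T3 over control, and it was read from 16 of the 23 libraries of the series, 4 in each of 4 groups. A positive value means that T3 raised a gene more, or lowered it less, with CHX than without it. The groups, by title, were CHX+T3 (8 µg/ml CHX from 30 min before 10 nM T3), CHX alone, T3 alone (10 nM) and control, all collected 6 h after the time of T3 addition. All were primary astrocytes of the cerebral cortex, taken at postnatal day 3 from mice of a hybrid background, 129/OLa+129/Sv+ with BALB/c+C57BL/6. All had spent 24 h in 0.1% serum deprived of thyroid hormone before treatment. The cultures were said to be over 95% astrocytes, and CHX is read here as cycloheximide. No label states whether the replicates are independent cultures. The p-values therefore reflect library-to-library spread only, and that spread may be technical. The other 7 libraries, 24 h with and without T3, entered the fit through its shared estimate of spread and the choice of genes tested. They were read once as a separate T3 effect.

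T3 acts by binding nuclear receptors that sit on DNA and, with hormone, switch nearby genes on. Genes that the receptor controls directly can respond while protein synthesis is blocked, whereas genes that answer to a protein made in response to T3 cannot. Cycloheximide stops ribosomes from moving along mRNA and is used to separate these kinds of response. It also changes the level of many mRNAs by itself, since short-lived mRNAs and short-lived repressor proteins depend on ongoing translation. Many T3 effects with CHX therefore start from a different base level. In the brain astrocytes make T3 with the deiodinase Dio2, and Hr and Klf9 are known direct targets of the hormone.

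The 16 libraries held 13843040 to 20493855 gene counts each, and levels are given in CPM (counts relative to library size, scaled between libraries). Astrocyte markers were abundant, with Gfap at 2320 to 5630 CPM, Slc1a3 at 1670 to 2190 CPM and Aqp4 at 727 to 1040 CPM, whereas Gjb6 did not pass 0.909 CPM in any library. Markers of neurons, microglia and the oligodendrocyte lineage were also present. In bulk RNA fewer cells of a type and less RNA per cell cannot be told apart. Reads from the mitochondrial genome made up 1.14 to 1.28% of gene counts in CHX+T3 libraries and 1.09 to 1.15% in CHX libraries, and 2.21 to 2.26% in T3 libraries and 2.34 to 2.57% in control libraries. By a lane token in the names of the deposited files, CHX replicate 4 and all CHX+T3 libraries belong to lane 6, and the other 11 libraries to lane 5. Without CHX replicate 4, lane and T3 cannot be told apart in the arm with CHX, and with lane in the model that arm rests on CHX replicate 4 alone.

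The T3 effect differed between the arms in 196 of the 16087 genes tested (1.22%; edgeR quasi-likelihood test, Benjamini-Hochberg adjusted p under 0.05). The difference was positive in 94 genes (0.584%) and negative in 102 (0.634%), and 194 of the 196 genes were protein-coding. T3 itself was called in 208 genes with CHX (1.29%; 1.16% higher and 0.131% lower) and in 606 without CHX (3.77%), while CHX alone was called in 10862 (67.5%; 37.0% higher and 30.6% lower), 151 of the 196 among them. By their calls, 109 of the 196 genes had a T3 effect that was lost with CHX, meaning called without CHX and smaller and not called with it. Of these, 62 had been raised by T3 and 47 lowered. In 5 genes (Hr, Hk2, Rhob, Slc38a3 and Apobec1) the effect was called in both arms and smaller with CHX, in 2 (Nrarp and Sox8) it was called in both and larger with CHX, and in 1 (Kif4) it was called in both with opposite signs. In 12 genes T3 was called with CHX only, and of the remaining 67 only Ccnf, a cyclin named here after its values were seen, had a called T3 effect, with values of 0.31 log2 with CHX (not called) and -0.28 log2 without (called). These classes are descriptions from thresholds, and in 171 of the 196 genes (87.2%) the fitted T3 effects had opposite signs, against 45.2% of all genes tested. The 196 were called for a distance between these effects, which favours opposite signs, so this share describes them and tests nothing.

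**Figure D1:**
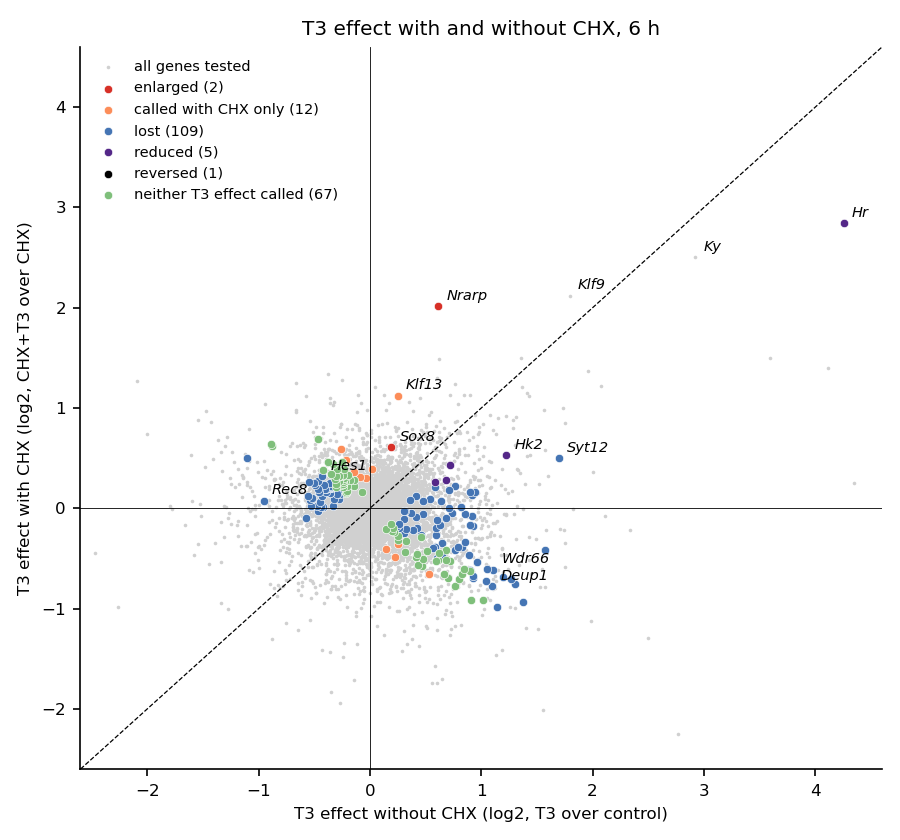
T3 effect with CHX (vertical, log2 CHX+T3 over CHX) against T3 effect without CHX (horizontal, log2 T3 over control) for the 16087 genes tested, with the 196 called genes coloured by class and the dashed line marking equal effects. Nrarp, Klf13 and Sox8 lie above the line at positive effects, Hr lies below it, and most called genes lie in the upper left and lower right, where the signs differ.

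CHX replicate 4 stood apart from the other CHX libraries in the genes called. It was the lowest of the 4 CHX libraries in 81 of the 94 genes with a positive difference (86.2%, against 30.1% of all genes) and the highest in 91 of the 102 with a negative one (89.2%, against 31.5%). Without it, 47 of 16057 genes were called (0.293%; 26 positive, 0.162%, and 21 negative, 0.131%), all of them among the 196. All 196 genes kept their sign without it, 185 became smaller, and the median ratio of the sizes was 0.867. The 196 had been called with CHX replicate 4 included, which favours such an order and smaller sizes without it. These shares therefore describe the called genes and test nothing. With lane as a covariate 966 genes were called (6.00%; 2.48% positive and 3.52% negative), and with the 6 h libraries alone 497 of 15526 (3.20%; 1.63% positive and 1.57% negative). In all, 45 genes were called with all libraries, without CHX replicate 4 and with lane alike. The count was sensitive to single libraries in every group: it fell to 30 without T3 replicate 4 and 30 without control replicate 2, and to 31, 34, 77 and 89 without CHX+T3 replicates 2, 3, 1 and 4. It was 46 without T3 replicate 3, 93 without T3 replicate 1, 118 without T3 replicate 2, 42 without control replicate 3 and 68 without control replicate 1. It was 334 without CHX replicate 3, and 479 without 24 h T3 replicate 1. That library enters through the shared spread and the set of genes tested, which was 16285 without it. Values without CHX replicate 4 stand beside the genes described below with a called difference, with few exceptions.

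**Figure D2:**
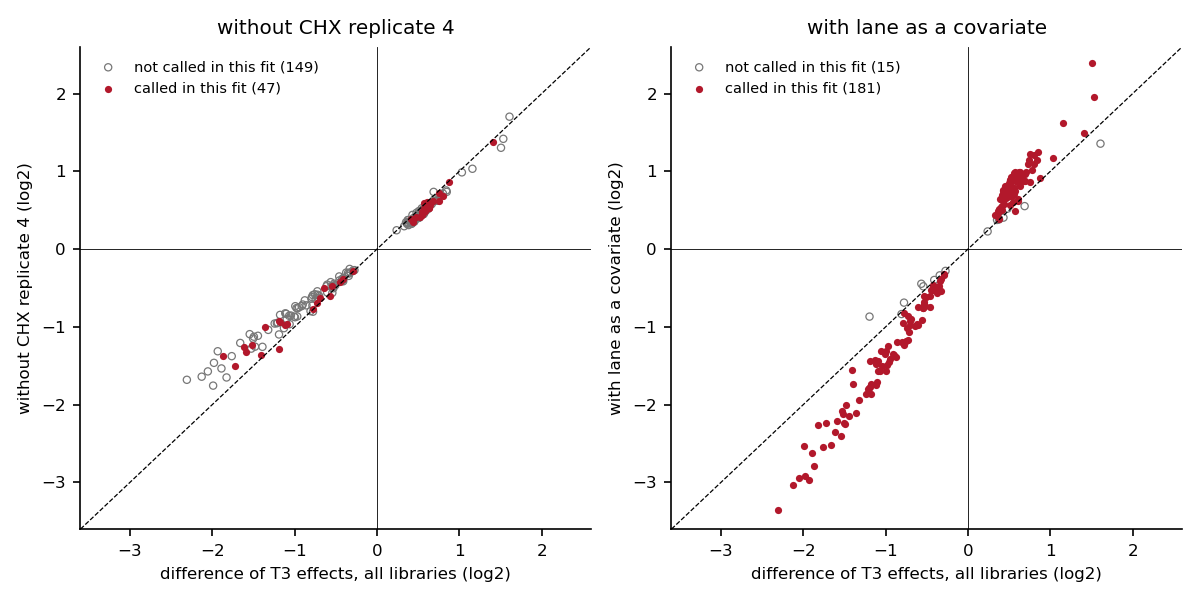
Difference of T3 effects (log2, with CHX minus without) of the 196 called genes, without CHX replicate 4 (left, vertical) and with lane as a covariate (right, vertical) against the value from all libraries (horizontal). Filled points were called in the fit of that panel, 47 on the left and 181 on the right, and the dashed line marks equal values: most points on the left are smaller in size than with all libraries and most on the right are larger.

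The T3 effect was larger with CHX in Nrarp, a target and feedback regulator of Notch signalling (chromosome 2, 25180758 to 25183339, plus strand, GRCm38). Nrarp was at 28.1, 28, 29.1 and 31.1 CPM in CHX+T3 libraries, against 7.00, 8.24, 6.76 and 6.74 CPM in CHX libraries. It was at 103, 101, 111 and 103 CPM in T3 libraries, against 68.7, 65.4, 69.6 and 69.2 CPM in control libraries. T3 libraries lay above their controls without overlap in both arms (over all genes, 12.3% had no overlap of CHX+T3 and CHX libraries and 11.5% none of T3 and control libraries), and both CHX groups lay far below both groups without CHX. T3 raised Nrarp by 2.02 ± 0.07 log2 with CHX and 0.61 ± 0.06 log2 without (± SE here and for all log2 values), and the difference was 1.40 ± 0.09 log2 (95% interval 1.22 to 1.59; edgeR adjusted p = 9.7e-10). Without CHX replicate 4 it was 1.38 ± 0.10 log2 (edgeR adjusted p = 1.1e-08). In absolute level the order was the opposite: T3 added 21.9 CPM with CHX and 36.1 CPM without, a difference of -14.2 CPM. CHX alone had changed Nrarp by -3.25 ± 0.07 log2. The antisense gene Gm38287 lies across Nrarp in GENCODE release M21 and was not used here.

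Klf13, a Krüppel-like transcription factor related to Klf9, had the same form. It was at 53.9, 55.3, 59.3 and 50.5 CPM in CHX+T3 libraries, against 27.3, 24.8, 23.9 and 24.3 CPM in CHX libraries. It was at 278, 225, 256 and 236 CPM in T3 libraries, against 203, 214, 237 and 183 CPM in control libraries, and only these last groups overlapped. T3 raised Klf13 by 1.12 ± 0.09 log2 with CHX, and without CHX the value was 0.25 ± 0.08 log2 (edgeR adjusted p = 0.0755). The difference was 0.88 ± 0.12 log2 (edgeR adjusted p = 4.6e-04) with all libraries and 0.86 ± 0.12 log2 (edgeR adjusted p = 0.00168) without CHX replicate 4. Here too CHX alone had lowered the level, by -3.06 ± 0.09 log2, and T3 added 29.7 CPM with CHX and 39.5 CPM without. Nrarp and Klf13 were the only 2 of the 196 genes whose difference had the opposite sign in CPM.

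Sox8, a SOX transcription factor of glia, also responded more with CHX, from a base that CHX alone had moved by -0.22 log2. Its level was 195, 205, 205 and 198 CPM in CHX+T3 libraries, against 133, 134, 135 and 124 CPM in CHX libraries, a gap of 69.0 CPM between the means. In T3 libraries it was 179, 169, 181 and 172 CPM, against 146, 160, 153 and 155 CPM in control libraries, a gap of 21.9 CPM. The groups did not overlap in either arm, and CHX replicate 4 was the lowest library. T3 raised Sox8 by 0.61 ± 0.05 log2 with CHX and 0.19 ± 0.05 log2 without, with a difference of 0.41 ± 0.06 log2 (edgeR adjusted p = 0.00275), and of 0.39 ± 0.06 log2 (edgeR adjusted p = 0.00643) without CHX replicate 4. Exons of 2810468N07Rik lie on the other strand of Sox8, and the library kit marks no strand.

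Klf13 was 1 of the 12 genes with T3 called with CHX only. Of the other 11, T3 raised 7 with CHX and lowered 4. Cenpf and Dlgap5, mitotic proteins of the kinetochore and spindle, and Brca1, a DNA repair protein, rose with T3 in the arm with CHX. The differences of Dlgap5 and Brca1 were 0.59 and 0.51 log2 (edgeR adjusted p = 0.0296 and 0.0347), and neither was called without CHX replicate 4 (edgeR adjusted p = 0.0518 and 0.0919). Cenpf averaged 111 ± 13.9 CPM in CHX+T3 libraries and 79.3 ± 11.03 CPM in CHX libraries, and 97.8 ± 8.71 CPM in T3 libraries and 113 ± 13.7 CPM in control libraries (SD, n = 4 each). Insig1, which holds back cholesterol synthesis, was at 88.9, 83.8, 91.1 and 98.9 CPM in CHX+T3 libraries, against 71.2, 71.1, 83.5 and 65.7 CPM in CHX libraries. T3 and control libraries overlapped for Insig1, at 58.0 to 63.7 CPM and 62.1 to 66.3 CPM. Pmepa1, a membrane inhibitor of TGF-beta signalling, rose by 0.40 log2 with CHX and stood at 0.02 log2 without. The differences of Cenpf, Insig1 and Pmepa1 were 0.69, 0.41 and 0.38 log2 (edgeR adjusted p = 0.0285, 0.0471 and 0.0454), and none of the 3 was called without CHX replicate 4 (edgeR adjusted p = 0.0663, 0.123 and 0.117). Genes that T3 lowered in the arm with CHX only included Gmnc and Elobl, and the difference of Elobl was called without CHX replicate 4 too (-0.93 log2, edgeR adjusted p = 0.0308), whereas its T3 effect with CHX then was not (edgeR adjusted p = 0.31). Gmnc, a coiled-coil protein that starts the multiciliated cell programme, had T3 effects of -0.36 log2 with CHX and 0.25 log2 without, and its difference of -0.60 log2 (edgeR adjusted p = 0.0296) was not called without CHX replicate 4 (edgeR adjusted p = 0.0809).

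**Figure D3:**
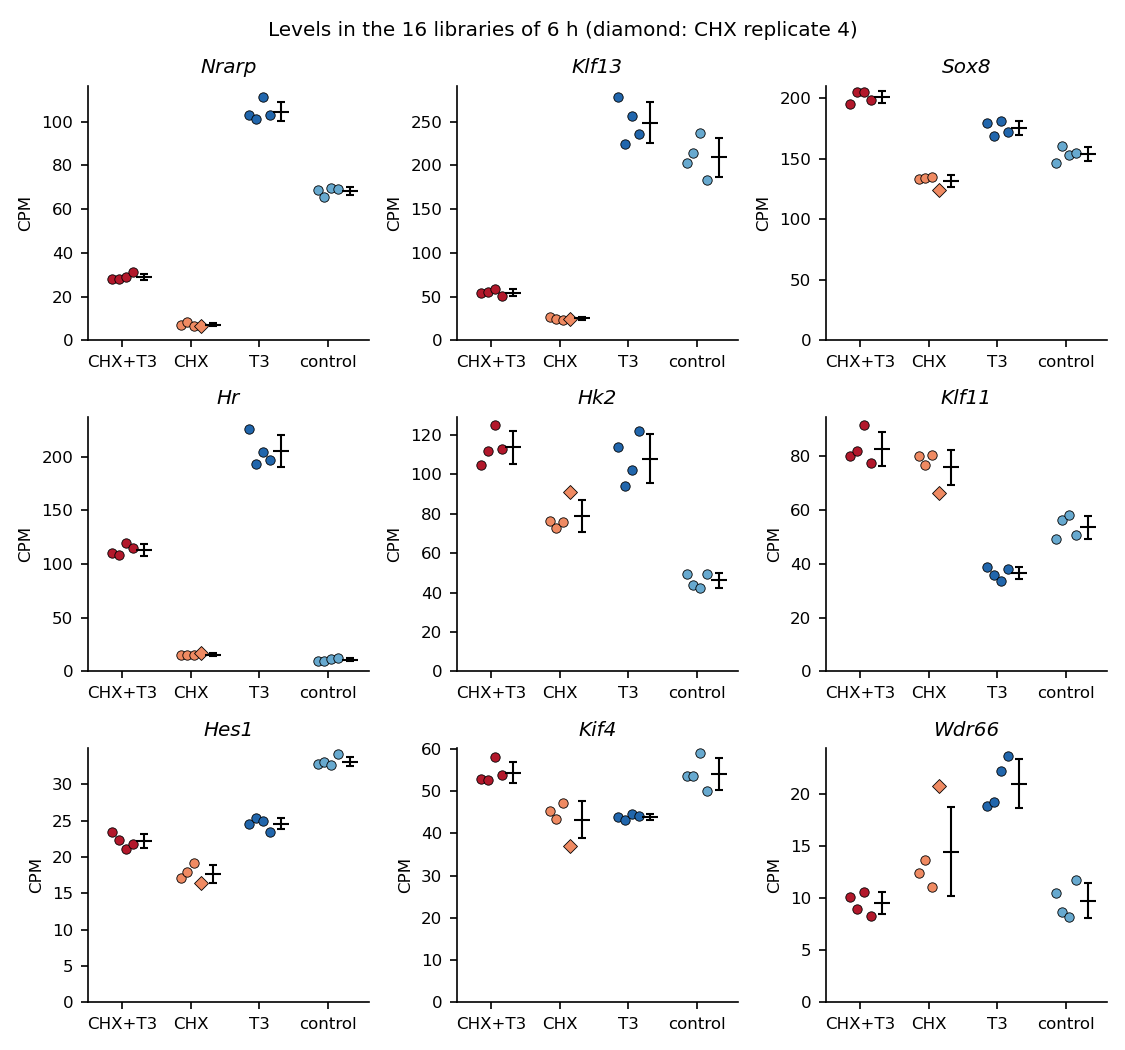
CPM of 9 genes in each of the 16 libraries of 6 h, by group, with the group mean and SD (bars) and CHX replicate 4 as a diamond. For Nrarp and Klf13 both CHX groups lie far below the groups without CHX, for Hr the T3 groups stand far above their controls in both arms, and for Wdr66 CHX replicate 4 lies above the other CHX libraries.

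Hr, a nuclear corepressor that is a classical direct target of T3, kept a large response with CHX, and that response was smaller than without it. Hr was at 110, 108, 120 and 115 CPM in CHX+T3 libraries, against 15.6, 14.9, 15 and 17.4 CPM in CHX libraries. It was at 226, 193, 204 and 197 CPM in T3 libraries, against 9.34, 10.0, 11.5 and 12.2 CPM in control libraries. No T3 library overlapped a control in either arm. The T3 effect was 2.85 ± 0.08 log2 with CHX and 4.26 ± 0.08 log2 without, a difference of -1.41 ± 0.11 log2 (95% interval -1.63 to -1.19; edgeR adjusted p = 1.4e-08), and of -1.36 ± 0.11 log2 without CHX replicate 4 (edgeR adjusted p = 7.0e-08). T3 added 97.3 CPM with CHX and 194 CPM without, so that scale gave the same order.

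Hk2, the hexokinase that starts glucose breakdown, showed a reduced effect over a raised base. It was at 105, 112, 125 and 113 CPM in CHX+T3 libraries, against 76.6, 72.7, 75.9 and 90.9 CPM in CHX libraries. It was at 114, 94.2, 102 and 122 CPM in T3 libraries, against 49.2, 43.8, 42.2 and 49.5 CPM in control libraries. Both T3 groups reached a similar level, while the CHX libraries lay above the controls. The T3 effect was 0.53 ± 0.08 log2 with CHX and 1.23 ± 0.08 log2 without, and the difference was -0.70 ± 0.12 log2 (edgeR adjusted p = 0.00506), or -0.62 ± 0.11 log2 without CHX replicate 4 (edgeR adjusted p = 0.0132). The small GTPase gene Rhob, the amino acid transporter gene Slc38a3 and the RNA-editing enzyme gene Apobec1 had smaller reductions, with differences of -0.41, -0.29 and -0.32 log2, and none of the 3 was called without CHX replicate 4 (edgeR adjusted p = 0.0663, 0.0904 and 0.113).

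Several strong T3 responses did not pass the test for a difference, which does not show that they were equal. Klf9, a Krüppel-like factor and direct T3 target, averaged 62.3 ± 3.71 CPM in CHX+T3 libraries and 14.3 ± 0.558 CPM in CHX libraries, and 79.6 ± 5.22 CPM in T3 libraries and 22.95 ± 1.92 CPM in control libraries (SD, n = 4 each). Its T3 effect was 2.12 ± 0.09 log2 with CHX and 1.79 ± 0.09 log2 without (difference 0.33 ± 0.12, 95% interval 0.08 to 0.58, edgeR adjusted p = 0.194). For Thrb, the beta receptor of T3, the difference was 0.04 log2 with an interval of -0.31 to 0.39 (edgeR adjusted p = 0.97). For Ky, a muscle protein gene that T3 raised by 2.50 log2 with CHX and 2.92 log2 without, it was -0.42 log2 (interval -1.03 to 0.19; edgeR adjusted p = 0.611). Dio2, which makes T3, was not called for T3 in either arm, with a difference of 0.42 ± 0.13 log2 (edgeR adjusted p = 0.0957). Dio3, which inactivates T3, was near the limit of detection. It was at 0.522, 0.234, 0.324 and 0.762 CPM in CHX+T3 libraries, against 0.0496, 0, 0.169 and 0.432 CPM in CHX libraries. In T3 libraries it was at 2.05, 1.79, 1.89 and 1.46 CPM, against 0.186, 0.119, 0.116 and 0.151 CPM in control libraries. Dio3 libraries with CHX overlapped and those without did not, yet its difference of -2.09 ± 0.79 log2 was not called (edgeR adjusted p = 0.208). Without CHX replicate 4, the highest CHX library for Dio3, the difference was -0.99 log2 (edgeR adjusted p = 0.854). Of the 27 genes tested in the thyroid hormone response list, 0 had a positive and 2 a negative called difference (Hr and Bcl3), with a median of -0.08 log2, and without CHX replicate 4 there was 1 call (Hr) and a median of -0.15 log2. Over all genes tested, 0.634% had a negative called difference, and 0.131% without CHX replicate 4.

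Of the 420 genes that T3 raised without CHX (2.61%), 124 were also raised with CHX, 69 were called for the difference and 234 were in neither group. Their median T3 effect was 0.171 log2 with CHX and 0.434 log2 without. Of the 186 genes that T3 lowered without CHX (1.16%), 0 were called lower with CHX, 1 was called higher (Kif4), 49 were called for the difference and 137 were in neither group, with medians of 0.0104 log2 with CHX and -0.337 log2 without. These genes were chosen by their effect without CHX, which is part of the difference, so the shares and medians describe them and test nothing.

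Genes raised by T3 whose effect was lost with CHX included Syt12, a synaptotagmin. Syt12 was at 4.57, 6.15, 5.51 and 6.30 CPM in CHX+T3 libraries, against 4.22, 4.42, 4.17 and 3.18 CPM in CHX libraries. It was at 9.38, 12.2, 10.2 and 10.1 CPM in T3 libraries, against 2.78, 2.39, 3.49 and 4.39 CPM in control libraries. T3 libraries were the highest, CHX+T3 libraries lay between them and the rest, and CHX and control libraries overlapped. Its T3 effect was 0.50 ± 0.15 log2 with CHX (edgeR adjusted p = 0.117) and 1.70 ± 0.15 log2 without, and the difference was -1.20 ± 0.21 log2 (edgeR adjusted p = 0.00848). It was -1.29 ± 0.21 log2 without CHX replicate 4 (edgeR adjusted p = 0.00643) and -0.87 log2 with lane as a covariate, where it was no longer called (edgeR adjusted p = 0.0867). Exons of A930001C03Rik lie on the other strand.

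Kcns1, a modulatory potassium channel subunit, averaged 10.97 ± 1.29 CPM in CHX+T3 libraries and 9.94 ± 0.628 CPM in CHX libraries, and 19.6 ± 1.51 CPM in T3 libraries and 10.3 ± 1.27 CPM in control libraries (SD, n = 4 each). The 4 T3 libraries lay above all others. Its difference was -0.78 ± 0.14 log2 (edgeR adjusted p = 0.0105). Stc2, a secreted glycoprotein, had been raised by CHX alone, by 2.61 log2, and T3 added 0.16 log2 to that level, against 0.89 log2 without CHX. Kcns1 and Stc2 were both called without CHX replicate 4 (edgeR adjusted p = 0.0243 and 0.0429), and so was Vsir, an immune checkpoint receptor, at -0.60 log2 (edgeR adjusted p = 0.0360). With lane as a covariate Vsir was at -0.45 log2 and not called (edgeR adjusted p = 0.106). Bcl3, a nuclear partner of NF-kappaB, was at 27.6, 33.6, 28.3 and 25.3 CPM in CHX+T3 libraries, against 27.6, 26.4, 29.3 and 37.4 CPM in CHX libraries. In T3 libraries it was at 9.38, 7.80, 6.44 and 7.36 CPM, against 4.08, 2.21, 5.41 and 4.77 CPM in control libraries. CHX alone thus placed Bcl3 above any level reached with T3 alone, the groups with CHX overlapped, and the difference was -0.99 ± 0.25 log2 (edgeR adjusted p = 0.0471). Vegfa, the growth factor of blood vessels, had T3 effects of 0.22 log2 with CHX and 0.76 log2 without (difference -0.54 log2, edgeR adjusted p = 0.0471). Atp1b2, a sodium pump subunit of astrocytes, had T3 effects of 0.21 log2 with CHX and 0.59 log2 without (difference -0.37 log2, edgeR adjusted p = 0.0471). Bcl3, Vegfa and Atp1b2 were not called without CHX replicate 4 (edgeR adjusted p = 0.117, 0.0896 and 0.123).

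Genes lowered by T3 whose effect was lost with CHX included Coro2b, an actin-binding coronin. Coro2b was at 89.6, 91.7, 92.5 and 87.1 CPM in CHX+T3 libraries, against 78.0, 82.1, 81.5 and 68.9 CPM in CHX libraries. It was at 121, 117, 121 and 121 CPM in T3 libraries, against 149, 156, 160 and 151 CPM in control libraries. T3 libraries lay below controls without CHX and above them with it, with no overlap in either arm. Here the T3 effect was 0.22 ± 0.06 log2 with CHX (edgeR adjusted p = 0.0514) and -0.36 ± 0.05 log2 without. The difference was 0.58 ± 0.08 log2 (edgeR adjusted p = 5.1e-04), and 0.52 ± 0.07 log2 without CHX replicate 4 (edgeR adjusted p = 0.00115).

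Klf11, another Krüppel-like factor, was at 79.8, 81.6, 91.5 and 77.3 CPM in CHX+T3 libraries, against 79.9, 76.5, 80.2 and 66.1 CPM in CHX libraries. It was at 38.8, 35.7, 33.6 and 37.9 CPM in T3 libraries, against 49.2, 56.3, 58.0 and 50.6 CPM in control libraries. The groups with CHX overlapped and those without did not. In this gene the T3 effect was 0.13 ± 0.07 log2 with CHX and -0.55 ± 0.08 log2 without, and the difference was 0.68 ± 0.11 log2 (edgeR adjusted p = 0.0029), and 0.62 ± 0.10 log2 without CHX replicate 4 (edgeR adjusted p = 0.00643). Mycn, a transcription factor of neural progenitors, was among these genes as well. It averaged 15.1 ± 2.03 CPM in CHX+T3 libraries and 14.3 ± 0.592 CPM in CHX libraries, and 37.7 ± 2.27 CPM in T3 libraries and 54.1 ± 4.07 CPM in control libraries (SD, n = 4 each). The difference of Mycn was 0.61 ± 0.11 log2 (edgeR adjusted p = 0.0105). Tyro3, a receptor tyrosine kinase, had a difference of 0.63 log2, and Mycn and Tyro3 were both called without CHX replicate 4 (edgeR adjusted p = 0.0218 and 0.0163).

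Notch signalling lets neighbouring cells hold one another in a given state, through ligands (Dll and Jag genes), receptors (Notch genes) and targets such as Hes1 and Nrarp. Of 18 Notch pathway genes tested, 3 had a positive and 0 a negative called difference, with a median of 0.37 log2 (all genes -0.00486), and the same counts without CHX replicate 4. The 3 were Nrarp, Hes1 and Lfng. Over all genes tested, 0.584% had a positive called difference, and 0.162% without CHX replicate 4. Hes1, a repressor of neuron production, was at 23.4, 22.3, 21.1 and 21.8 CPM in CHX+T3 libraries, against 17.1, 18, 19.2 and 16.4 CPM in CHX libraries. It was at 24.5, 25.3, 25 and 23.5 CPM in T3 libraries, against 32.8, 33.0, 32.6 and 34.1 CPM in control libraries. Neither pair overlapped, and the order within the pair was opposite in the arms. Its fitted T3 effect was 0.32 ± 0.09 log2 with CHX (edgeR adjusted p = 0.0854) and -0.43 ± 0.09 log2 without, and the difference was 0.75 ± 0.13 log2 (edgeR adjusted p = 0.00506), and 0.72 ± 0.13 log2 without CHX replicate 4 (edgeR adjusted p = 0.0151).

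Lfng, a glycosyltransferase that modifies Notch receptors, was at 14, 16.3, 13.6 and 12.8 CPM in CHX+T3 libraries, against 11.3, 13, 13.1 and 12.0 CPM in CHX libraries. It was at 85.7, 92.4, 85.6 and 80.1 CPM in T3 libraries, against 106, 114, 120 and 116 CPM in control libraries. T3 lay below control without CHX, while the groups with CHX overlapped at a level far below. For this gene T3 gave an effect of 0.20 ± 0.08 log2 with CHX and -0.41 ± 0.07 log2 without, the difference was 0.60 ± 0.10 log2 (edgeR adjusted p = 0.00678), and 0.59 ± 0.11 log2 without CHX replicate 4 (edgeR adjusted p = 0.0187). The receptor gene Notch1 had a difference of 0.62 log2 that was not called (edgeR adjusted p = 0.092). The target gene Hes5 had T3 effects of -0.59 log2 with CHX and -0.998 log2 without (difference 0.41 log2, edgeR adjusted p = 0.823), at 0.322 and 0.495 CPM in CHX+T3 and CHX libraries on average.

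Kif4, a mitotic kinesin, was with all libraries the only gene with T3 effects called in both arms and of opposite sign. It was at 52.9, 52.6, 58.0 and 53.9 CPM in CHX+T3 libraries, against 45.4, 43.5, 47.1 and 37.0 CPM in CHX libraries. It was at 43.9, 43.1, 44.6 and 44.0 CPM in T3 libraries, against 53.5, 53.6, 59.1 and 50.0 CPM in control libraries. Neither pair overlapped. T3 raised Kif4 by 0.33 ± 0.07 log2 with CHX (edgeR adjusted p = 0.0101) and changed it by -0.30 ± 0.07 log2 without (edgeR adjusted p = 0.0119). The difference was 0.63 ± 0.10 log2 (edgeR adjusted p = 0.00289), and 0.56 ± 0.09 log2 without CHX replicate 4 (edgeR adjusted p = 0.00561), but the T3 effect with CHX was then 0.26 log2 and no longer called (edgeR adjusted p = 0.0624). The number of genes with called effects of opposite sign was 0 without CHX replicate 4, CHX+T3 replicate 3 or control replicate 3. It was 2 without CHX replicate 2 or control replicate 4, 15 without CHX replicate 3 and 14 without 24 h T3 replicate 1. Exons of Pdzd11 lie on the other strand of Kif4.

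Other mitotic genes are in the cell cycle list, which does not hold Kif4. Of 30 genes in the cell cycle list, 7 had a positive and 0 a negative called difference, 29 had a positive value, and the median was 0.36 log2. The 7 were the cyclins Ccna2, Ccnb1, Ccnb2 and Ccnd1 and the mitotic kinases Plk1, Aurka and Aurkb. Over all genes tested, 0.584% had a positive called difference and 7852 of 16087 a positive value. Median T3 effects over the list were 0.14 log2 with CHX and -0.20 log2 without. With CHX but without CHX replicate 4 the median T3 effect was 0.07 log2. In summed CPM the list was at 2026, 2099, 2043 and 1998 in CHX+T3 libraries, against 1896, 1880, 1970 and 1589 in CHX libraries. The sums were 2760, 2746, 2742 and 2744 in T3 libraries, against 3090, 3054, 3174 and 3254 in control libraries. CHX replicate 4 had the lowest sum of all 16, and without it 1 gene of the list was called (Ccna2) and the median difference was 0.28 log2. The library, its lane and the treatment cannot be told apart here.

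Ccna2, the cyclin of S phase and G2, was at 60.5, 62.7, 62.4 and 58.1 CPM in CHX+T3 libraries, against 50.6, 50.8, 58.5 and 40.1 CPM in CHX libraries. It was at 96.8, 99.1, 93.8 and 98.6 CPM in T3 libraries, against 113, 120, 124 and 118 CPM in control libraries. T3 libraries lay below control without CHX, and with CHX the closest pair was 58.1 CPM in CHX+T3 and 58.5 CPM in CHX. The fitted T3 effect was 0.29 ± 0.08 log2 with CHX (edgeR adjusted p = 0.0828) and -0.29 ± 0.08 log2 without (edgeR adjusted p = 0.0331). The difference was 0.57 ± 0.11 log2 (edgeR adjusted p = 0.0165), and 0.48 ± 0.09 log2 without CHX replicate 4 (edgeR adjusted p = 0.0204). Foxm1, a transcription factor of mitotic genes, and the mitotic motors Kif23 and Kif2c were lost in the same sense, at 0.55, 0.63 and 0.58 log2 (edgeR adjusted p = 0.0293, 0.0165 and 0.0253). Kif23 and Kif2c were still called without CHX replicate 4 (edgeR adjusted p = 0.0163 and 0.031) and Foxm1 was not (edgeR adjusted p = 0.072). Exons of Exosc9 lie on the other strand of Ccna2.

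The promoters of Kif4 and the mitotic kinase gene Plk1 are shown because each carries TTTGAA, the core of the cell cycle homology region found in promoters of mitotic genes. They are RefSeq sequences on GRCm38.p6, written 5′ to 3′ in the direction of the gene with the motif in capitals. Kif4 is at chrX:100625815-100626114, plus strand, and Plk1 at chr7:122159185-122159484, plus strand.
Kif4: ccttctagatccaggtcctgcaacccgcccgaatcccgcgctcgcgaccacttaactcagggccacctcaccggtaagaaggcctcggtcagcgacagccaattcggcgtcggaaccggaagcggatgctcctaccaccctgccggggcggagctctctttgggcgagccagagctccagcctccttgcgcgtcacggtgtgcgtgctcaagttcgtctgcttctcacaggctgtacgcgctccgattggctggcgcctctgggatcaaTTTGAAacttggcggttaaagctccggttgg
Plk1: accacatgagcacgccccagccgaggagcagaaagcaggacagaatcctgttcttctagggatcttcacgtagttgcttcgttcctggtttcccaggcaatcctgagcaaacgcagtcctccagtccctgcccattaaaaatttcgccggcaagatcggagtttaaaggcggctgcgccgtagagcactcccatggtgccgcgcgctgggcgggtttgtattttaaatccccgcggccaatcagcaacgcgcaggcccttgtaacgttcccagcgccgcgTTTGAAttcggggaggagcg

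TTTGAA was searched on both strands of 300 bases around the start of each gene that the RefSeq table matched by symbol. It was present in 27 of 64 matched genes with a positive called difference (42.2%), in 22 of 80 with a negative one (27.5%), in 9 of 23 matched cell cycle genes (39.1%) and in 14% of the 11448 matched genes tested. Over all 27025 genes of the table the share was 20.2%. TTCGAA, a variant of the same element, was in 3 of the 64 (4.69%), 0 of the 80 and 2.42% of genes tested. AGGTCA, the short site read by thyroid hormone receptors and other nuclear receptors, was in 17.2% of the 64 and 17.5% of the 80, against 14.7% of genes tested. TGGGAA, the core read by the Notch partner Rbpj, was in 29.7% of the 64, 35% of the 80 and 27.1% of genes tested, and the longer GTGGGAA in 6.25%, 15% and 7.42%. GTGGGAA contains TGGGAA, so their matches are not separate. A match says only that the letters are there.

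Genes of motile cilia, the beating hairs of multiciliated cells, had mostly negative differences. Of 35 motile cilia genes tested, 0 had a positive and 6 a negative called difference (Rsph4a, Tekt1, Zmynd10, Rsph1, Cfap52 and Ccdc40), 34 had a negative value, and the median was -0.85 log2. Over all genes tested, 0.634% had a negative called difference and 8235 of 16087 a negative value. The median T3 effect over the list was -0.27 log2 with CHX and 0.60 log2 without. With CHX but without CHX replicate 4 the median T3 effect was -0.05 log2. Without CHX replicate 4, 0 of the genes were called for the difference and the median difference was -0.57 log2. With lane as a covariate 27 were called lower with a median difference of -1.40 log2. In summed CPM the list was at 1006, 935, 994 and 997 in CHX+T3 libraries, against 1074, 1068, 973 and 1386 in CHX libraries. The sums were 988, 987, 999 and 1006 in T3 libraries, against 786, 802, 875 and 725 in control libraries. T3 libraries lay above control without CHX, the groups with CHX overlapped, and CHX replicate 4 had the highest sum of the 16. The library and its lane cannot be told apart.

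Wdr66, a protein of the ciliary axoneme that the list does not hold, was called for the difference with and without CHX replicate 4. It was at 10.1, 8.96, 10.6 and 8.28 CPM in CHX+T3 libraries, against 12.4, 13.6, 11.1 and 20.7 CPM in CHX libraries. It was at 18.8, 19.2, 22.2 and 23.6 CPM in T3 libraries, against 10.5, 8.65, 8.20 and 11.7 CPM in control libraries. T3 lay above control without CHX and below it with CHX, and neither pair overlapped. The effect of T3 was -0.61 ± 0.18 log2 with CHX (edgeR adjusted p = 0.105) and 1.11 ± 0.18 log2 without, the difference was -1.72 ± 0.25 log2 (edgeR adjusted p = 0.00126), and -1.50 ± 0.22 log2 without CHX replicate 4 (edgeR adjusted p = 0.00168). Exons of Gm15857 lie on the other strand.

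Deup1, a scaffold of the structures that multiply centrioles in multiciliated cells, was at 12.3, 9.49, 14.1 and 14.6 CPM in CHX+T3 libraries, against 16.5, 14.8, 14.6 and 40.9 CPM in CHX libraries. It was at 17.0, 16.4, 16.8 and 19.8 CPM in T3 libraries, against 8.78, 7.16, 7.10 and 9.92 CPM in control libraries. CHX replicate 4 stood far above the other CHX libraries. The difference was -1.87 ± 0.39 log2 (edgeR adjusted p = 0.0285), and -1.37 ± 0.28 log2 without that library (edgeR adjusted p = 0.031). Spag6l, of the central apparatus of the axoneme, and the adenylate kinase gene Ak9 had differences of -1.62 and -1.51 log2, and both were called without that library as well, at -1.26 and -1.23 log2 (edgeR adjusted p = 0.0411 and 0.0459).

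Tekt1 was at 4.83, 3.57, 3.84 and 3.71 CPM in CHX+T3 libraries, against 4.12, 4.95, 4.28 and 9.66 CPM in CHX libraries, and at 8.87, 9.11, 8.68 and 9.65 CPM in T3 libraries, against 4.95, 5.25, 3.84 and 4.62 CPM in control libraries. Zmynd10 was at 5.35, 4.22, 4.38 and 5.44 CPM in CHX+T3 libraries, against 6.60, 6.30, 5.85 and 11.7 CPM in CHX libraries, and at 9.02, 9.81, 10.6 and 11.7 CPM in T3 libraries, against 5.26, 6.14, 6.75 and 7.80 CPM in control libraries. In both genes T3 lay above control without CHX, and CHX replicate 4 was the highest of the libraries with CHX. Differences were -1.49 log2 for Tekt1 and -1.32 log2 for Zmynd10 (edgeR adjusted p = 0.0293 and 0.0296), and without CHX replicate 4 they were -1.13 and -1.04 log2 and not called (edgeR adjusted p = 0.0642 and 0.077).

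The promoters of Tekt1, a filament protein of cilia, and Zmynd10, an assembly factor of ciliary dynein arms, are shown because they carry GTTGCC, the core of the X-box read by RFX factors of ciliated cells. They are given as above, with GTTGCC or its reverse complement in capitals. Tekt1 is at chr11:72361833-72362132, minus strand, and Zmynd10 at chr9:107547054-107547353, plus strand.
Tekt1: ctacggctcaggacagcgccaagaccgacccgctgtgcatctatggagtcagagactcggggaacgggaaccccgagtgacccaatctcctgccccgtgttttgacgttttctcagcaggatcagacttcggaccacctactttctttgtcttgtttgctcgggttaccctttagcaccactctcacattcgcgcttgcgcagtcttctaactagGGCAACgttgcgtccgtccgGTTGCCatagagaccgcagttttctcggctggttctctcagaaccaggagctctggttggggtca
Zmynd10: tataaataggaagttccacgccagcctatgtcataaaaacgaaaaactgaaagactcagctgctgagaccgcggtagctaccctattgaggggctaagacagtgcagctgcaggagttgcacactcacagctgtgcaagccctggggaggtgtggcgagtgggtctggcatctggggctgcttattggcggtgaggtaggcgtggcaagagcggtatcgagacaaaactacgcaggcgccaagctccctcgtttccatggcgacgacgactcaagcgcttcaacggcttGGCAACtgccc

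GTTGCC was in 16 of 29 matched motile cilia genes (55.2%), in 22 of the 80 matched genes with a negative called difference (27.5%), in 10 of the 64 with a positive one (15.6%) and in 15.3% of matched genes tested. A longer exact form of the X-box, which contains GTTGCC, was in 0% of the matched cilia genes and 0.673% of genes tested, and the gapped palindromic X-box in 6.9% and 0.131%. The 8 motifs were searched after the gene results had been seen.

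**Figure D4:**
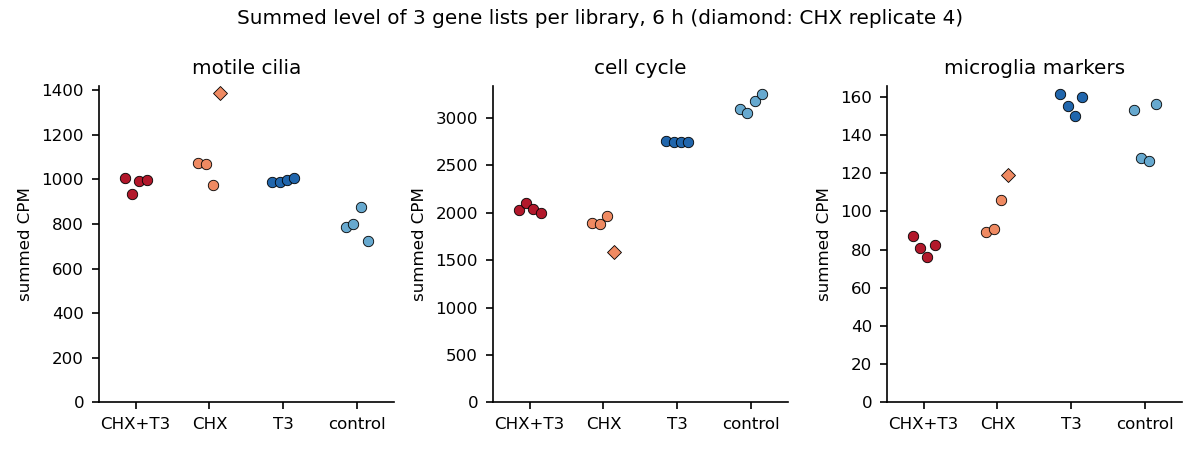
Summed CPM of the motile cilia, cell cycle and microglia marker lists (vertical) in each of the 16 libraries of 6 h, by group, with CHX replicate 4 as a diamond. CHX replicate 4 has the highest cilia sum (1386) and the lowest cell cycle sum (1589), and its microglia sum (119) is the highest of the CHX groups.

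Markers of neurons and microglia had negative differences as well. Over all genes tested, 8235 of 16087 had a negative difference, and 0.634% a negative called one. All 11 neuron markers tested had a negative difference, with a median of -0.79 log2 and 1 called (Elavl4, an RNA-binding protein of neurons, at -0.79 log2, edgeR adjusted p = 0.0448), and without CHX replicate 4 the median was -0.61 log2 and 0 were called. Summed CPM of neuron markers ran from 437 to 484 in CHX+T3 libraries and 453 to 513 in CHX libraries, and from 524 to 596 in T3 libraries and 502 to 546 in control libraries. Most of each sum was Map2 (group means of 307 to 340 CPM) and Stmn2 (102 to 123 CPM). Other members were lower: Tubb3, Dcx, Elavl4 and Gad1 reached 38.2, 26.9, 25.1 and 24 CPM in their highest library of 6 h. Rbfox3 and Snap25 did not pass 1.11 and 2.75 CPM in any library of 6 h. All 16 microglia markers had a negative difference, with a median of -0.58 log2 and 0 called. Without CHX replicate 4, the highest CHX library by their sum, the median was -0.52 log2 and 0 were called. Sums of these markers were 76.2 to 87.0 CPM in CHX+T3, 89.3 to 119 CPM in CHX, 150 to 161 CPM in T3 and 126 to 156 CPM in control libraries. No microglia marker was at 0 in any library. A list of interneuron lineage genes put together after the values had been seen had 0 positive and 3 negative calls among 9 tested (Dlx1, Dlx2 and Sp9) with a median of -1.07 log2, and 0 calls without CHX replicate 4 at a median of -0.67 log2. Dlx1, a homeobox factor of interneurons, was at 12.3, 9.66, 10.5 and 10.0 CPM in CHX+T3 libraries, against 10.4, 11.4, 11.1 and 22.3 CPM in CHX libraries. It was at 62.8, 60.5, 61.7 and 68.3 CPM in T3 libraries, against 38.5, 32.7, 38.7 and 36.4 CPM in control libraries, so that CHX replicate 4 again lay above the other CHX libraries. The part of other cell types in the cilia and neuron results was not tested.

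Among 20 astrocyte markers tested there was 1 positive call (the growth factor receptor gene Fgfr3), 1 negative call (Atp1b2) and a median of -0.14 log2. Over all genes tested, 0.584% were called positive and 0.634% negative. Oligodendrocyte lineage markers (8 tested, median -0.34 log2) and vascular and meningeal markers (11 tested, median 0.01 log2) had 0 calls in either direction. Without CHX replicate 4 these medians were -0.21 and -0.19 log2, and with lane as a covariate that of the vascular and meningeal markers was 0.51 log2. Of 31 immediate early genes 1 was called positive, and of 18 p53 targets 1, in both cases Btg2, an antiproliferative gene that both lists hold (0.55 log2, edgeR adjusted p = 0.0168). Medians of these lists were -0.02 and 0.08 log2. Of 25 cholesterol synthesis genes 1 was called positive (Insig1, median -0.05 log2), of 14 NF-kappaB feedback genes 1 negative (Bcl3, median -0.15 log2), and of 20 interferon response genes 1 negative (Gbp2, an interferon-induced GTPase, median -0.02 log2). Of 7 mitochondrially encoded proteins, a list put together after the values had been seen, 2 were called positive (mt-Nd2 and mt-Nd1, subunits of complex I, both 0.37 log2), with a median of 0.21 log2. Btg2 was still called without CHX replicate 4 (edgeR adjusted p = 0.0346), while Fgfr3, Atp1b2, Insig1, Bcl3, Gbp2, mt-Nd2 and mt-Nd1 were not (edgeR adjusted p = 0.0601, 0.123, 0.123, 0.117, 0.087, 0.0858 and 0.103).

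The remaining lists had 0 calls in either direction. Their medians were 0.04 log2 for thyroid hormone handling (19 tested), -0.44 for chemokines and cytokines (16), 0.10 for the circadian clock (20), -0.07 for integrated stress (19) and 0.08 for fatty acid synthesis (16). They were 0.05 for extracellular matrix (35), -0.00079 for ADAMTS proteases (17), -0.18 for snoRNA host noncoding genes (10) and -0.02 for SR splicing factors (18). They were -0.0078 for ribosomal proteins (45) and 0.04 for oxidative phosphorylation (38).

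**Figure D5:**
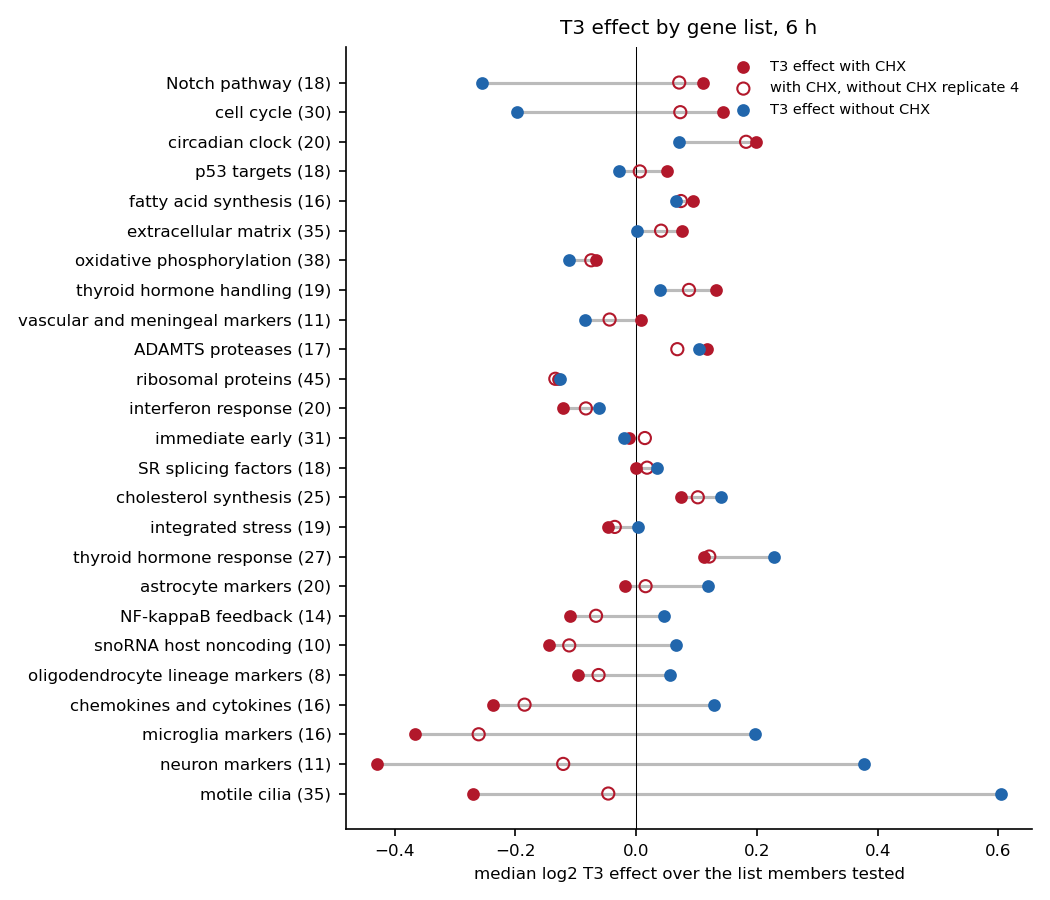
Median log2 T3 effect over the tested members of each gene list, with CHX (red), with CHX but without CHX replicate 4 (open) and without CHX (blue); the number of members tested is in brackets. Medians lie far apart for motile cilia (-0.27 with CHX and 0.60 without) and neuron markers (-0.43 with CHX and 0.38 without), while ribosomal proteins and ADAMTS proteases have almost equal medians. Without CHX replicate 4 the medians with CHX are -0.05 for motile cilia and -0.12 for neuron markers.

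The T3 effect at 24 h shares no library with the difference and was called in 1140 genes (7.09%; 4.41% higher and 2.68% lower). Of its 3 T3 libraries, replicate 1 stood apart (chi-square per degree of freedom 29.5 and 37.5 against the others, which differed by 2.70), and without it, chosen after seeing the data, 963 of 16285 genes were called (5.91%). Of the 62 genes raised by T3 and lost with CHX, 15 were called higher at 24 h (24.2%), against 193 of the 351 genes raised at 6 h and not called for the difference (55.0%). Of the 47 genes lowered and lost with CHX, 23 were called lower at 24 h (48.9%), against 38 of 137 (27.7%). Without 24 h T3 replicate 1 these shares were 22.6% against 59.3%, and 42.6% against 30.7%. Hr, Hk2 and Syt12 rose at 24 h by 3.73, 1.57 and 2.31 log2, and Nrarp by 0.63 log2. Klf11, Coro2b, Kif4 and Ccna2 were lower with T3 at 24 h, at -0.33, -0.27, -0.36 and -0.35 log2 (edgeR adjusted p = 0.0131, 0.00483, 0.00595 and 0.0125), and without 24 h T3 replicate 1 the Klf11 call was lost (-0.28 log2, edgeR adjusted p = 0.0595). Wdr66 and Deup1 did not pass the test at 24 h, at -0.16 and -0.07 log2 (edgeR adjusted p = 0.655 and 0.914), nor did Sox8 at -0.04 log2 (edgeR adjusted p = 0.67). The sizes of these groups differ, and no test was run on the shares. The groups were split by the difference, which holds the 6 h T3 effect, so the shares describe them and test nothing. Without CHX replicate 4, 17 of the 62 genes and 20 of the 47 were still called for the difference.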

How the data were processed

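Single reads of 50 nt came from a kit without strand information and 200 ng of input RNA, per the labels' protocols. According to the submitters' processing notes the tools were TopHat, Bowtie, HTSeq and edgeR, with bcl2fastq and FastQC before them, on GRCm38. No source used here gives their versions, the gene annotation, or the mode and strand setting of HTSeq. The deposited values are raw counts of reads per Ensembl gene, 1 library per file, and 38293 genes each; 5 closing lines that name no gene stayed out. Of those, the share of each file's sum was 3.75 to 5.81% for reads with no feature and 30.7 to 42.3% for alignments with several positions.

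Groups came from the titles. Libraries held 13843040 to 22997873 gene counts, and chi-square per degree of freedom between replicates was 1.71 to 37.5 over 33 pairs, above sampling noise in each. Symbols and coordinates came from GENCODE M21 on GRCm38, in which 36345 identifiers were found, as were 539 of 550 list symbols in the files. edgeR 4.0.16 in R 4.3.3 fitted a quasi-likelihood model with 6 group means to all 23 libraries (filterByExpr with a minimum count of 10, 16087 genes, TMM, 17 residual degrees of freedom, biological coefficient of variation 8.57%). Contrasts were tested with the F test and Benjamini-Hochberg adjustment over all genes at 0.05. A standard error is the size of the log2 value divided by the square root of F. CPM were computed here on TMM-scaled sizes.

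On simulated counts for this difference, over 15998 genes with 100 genes changed at each size, 49% of those changed by 0.5 log2 and 84% of those changed by 1 log2 were called, and 8.28% of 145 calls were false. These shares describe the simulated counts only. In the deposited counts CHX replicate 4 alone separates lane from T3 in the arm with CHX. There the number of genes called ran from 30 to 334 when single libraries of 6 h were left out. The 8.28% is therefore not an estimate of the false share among the genes called in the deposited counts.

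Members, lists and genes to name were chosen with earlier results of these data known. The rule named protein-coding genes of at least 1 CPM: the 12 per direction with the largest called difference, the 6 with the smallest adjusted p per class, Hr, Klf9, Dio3, Dio2 and Thrb in any case, the 10 raised and 5 lowered most by T3 without CHX, and up to 3 per list. The genes given library by library, and the interneuron lineage and mitochondrially encoded lists, were chosen after their values had been seen, as were the motifs. Not every gene the rule names is described. Replicate numbers were not used to pair libraries in the main fit, and whether they mark pairs is not known. Alternatives were DESeq2 1.42.0, RLE factors, no filter, 6 h libraries only with and without a replicate block, lane, left-out libraries, a length and GC trend, a threshold of 1 log2, and differences in CPM.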

Additional observations from a re-analysis of the deposited data

Results flagged for a closer look

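A test of the difference itself found that the T3 effect with CHX and the T3 effect without CHX were unequal in the 14 genes below, which are among those given library by library. The values, with CHX minus without and on the log2 scale (edgeR quasi-likelihood test), were 1.40 for Nrarp, 0.41 for Sox8, 0.88 for Klf13, -1.41 for Hr, -0.70 for Hk2 and -1.20 for Syt12. They were 0.68 for Klf11, 0.58 for Coro2b, 0.75 for Hes1, 0.60 for Lfng, 0.63 for Kif4, 0.57 for Ccna2, -1.72 for Wdr66 and -1.87 for Deup1. The 14 are listed because they were called, from genes chosen after their values had been seen. With lane as a covariate Syt12 was at -0.87 log2.

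The search covered 100 groups of 4 libraries, over these genes, a further gene without a called difference, list sums and library measures. In these groups 5 libraries lay far from the other 3 of their group, and chance gives about 1 in 20. They were CHX replicate 4 for Deup1 at 40.9 CPM, T3 replicate 2 for Coro2b at 117 CPM, CHX+T3 replicate 2 for summed motile cilia genes at 935 CPM, control replicate 4 for summed neuron markers at 546 CPM and T3 replicate 1 for summed oligodendrocyte lineage markers at 957 CPM.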

How the results depend on the processing

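With RLE factors the number of genes with a called difference was again 196, split into 106 positive and 90 negative against 94 and 102, and the median over all genes was 0.01 log2 against -0.00486. The numbers below are, in order where given, genes called for the difference, positive and negative ones, and lost, reduced, reversed, enlarged and CHX-only genes, against 196, 94, 102, 109, 5, 1, 2 and 12. DESeq2 gave 514, 258, 256, 259, 9 and 13, 50 called with CHX only, and 343 genes for T3 with CHX. The 6 h libraries alone gave 497, 253, 244, 252, 10, 14, 4 and 61, with 393 genes for T3 with CHX and 922 without. With the replicate block added to these they gave 683, 346, 337, 336, 10, 50, 6 and 103, with 543 and 1083. Same-numbered libraries deviated together weakly or not at all (correlations -0.0632 to 0.211 over 24 pairs, with 7 of 16 libraries closest to their own number). These values cannot decide whether the numbers mark pairs, so the block is a hint and not the design. Lane as a covariate gave 966, 399 and 567, with 3 reduced, 145 reversed and 326 CHX-only genes and 660 for T3 with CHX. Removing a length and GC trend gave 616, 373, 243, 323, 9, 11, 5 and 57, with 353 and 1001. No filter gave 295, of them 177 negative, 3 reversed and 23 CHX-only. A threshold of 1 log2 left 49, 6, 43, 26, 1, 0, 1 and 1. Without 24 h T3 replicate 1 the numbers were 479, 234, 245, 250, 10, 14, 5 and 61, with 417 and 989. Without it and CHX replicate 4 together, 154 genes were called, 61 of them negative, with 3 reversed, 5 CHX-only and 1191 for T3 without CHX. With CHX replicate 4 as the only CHX library, chosen after seeing the data, they were 784, 336, 448, 3 reduced, 108 reversed, 237 CHX-only and 485 for T3 with CHX; its lone library is assumed to vary like the others. Leaving out each of the 16 libraries gave 30 to 334 genes for the difference, 17 to 155 positive, 12 to 179 negative, 17 to 131 lost, 2 to 5 reduced, 0 to 15 reversed, 1 to 3 enlarged and 1 to 50 CHX-only, with 138 to 252 for T3 with CHX and 349 to 766 without. The cause of these shifts was not tested.

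Among single genes, the difference in CPM reversed for Nrarp (-14.2 CPM) and Klf13 (-9.88 CPM). Ky, not called, was 0.25 log2 with lane and 0.26 log2 with CHX replicate 4 alone. Thrb, not called and near 0, ran from -0.044 to 0.136 log2 when libraries were left out one at a time, being -0.022 without CHX+T3 replicate 2, -0.013 without CHX+T3 replicate 3 and -0.0079 without control replicate 2. Counting limits genes below about 1 CPM, such as Dio3.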
